A study of Homo sapiens with 4 samples.

Results

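The zinc finger genes of chromosome 19 were described in MV4-11 cells, a human AML cell line, after knockdown of ANP32B. Members were the protein-coding genes of chromosome 19 with a symbol of ZNF followed by a number and were selected on their level, a TPM of 1 or more when averaged across all 4 libraries. TPM corrects read numbers for gene length and brings every library to one total. Of 249 such genes annotated in GENCODE version 44, 131 were listed in the table of 18885 genes, and 121 of these reached the limit. The members were thus chosen by their averaged TPM, with both groups weighing equally, and not by a test between the groups. Near the limit, however, a gene could pass through its level in 1 group. ZNF440, ZNF543, ZNF763 and ZNF382, for example, averaged below 1 TPM in sh-NC and above 1 TPM in sh-ANP32B. RNA from 2 libraries of control MV4-11 cells (sh-NC) and 2 libraries of MV4-11 cells with shRNA knockdown of ANP32B (sh-ANP32B) was compared. The labels name no shRNA for the control cells, and sh-NC is the study's name for that group. They also do not say which of the study's shRNAs against ANP32B was used, or whether both knockdown libraries carried the same one. Other effects of an shRNA therefore cannot be told apart from loss of ANP32B. Nothing in the labels says whether the libraries of a group came from separate cultures, so p-values measure the spread between these libraries, which may be technical. TPM keep no record of read number, and the depth of each library is unknown.

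ZNF proteins bind DNA through rows of fingers, each a short loop held by a zinc ion between cysteines and histidines. Many of them start with a KRAB box, which recruits the corepressor TRIM28, and TRIM28 in turn brings the histone methyltransferase SETDB1, HP1 proteins and the NuRD deacetylase complex. The best known targets of these proteins are transposable elements. Their genes arose by repeated duplication and lie in clusters along chromosome 19, so that neighbours are often near-copies. Some ZNF proteins have no KRAB box and consist of fingers only.

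The targeted gene was checked first. ANP32B (ENSG00000136938), a histone chaperone of chromosome 9, was at 358 and 364 TPM in sh-NC and at 54.1 and 49.3 TPM in sh-ANP32B. The knockdown group was at 14.3% of the control mean, with a log2 fold change of -2.78 ± 0.06 (SE, adjusted p = 2.89e-05, limma). Of the 8 myeloid markers looked for, 7 were listed, among them SPI1 at 250 to 361 TPM and CD33 at 52.8 to 72.6 TPM. ITGAM, an integrin of mature myeloid cells, was at 3.51 and 3.59 TPM in sh-NC and at 26.1 and 26.4 TPM in sh-ANP32B. Among the markers of other cell types, PECAM1 was at 20.7 and 20.8 TPM in sh-NC and at 51.0 and 51.9 TPM in sh-ANP32B, and the others are not reported here. ITGAM and PECAM1 moved with the groups, and their part in the results for the ZNF genes was not tested. In such bulk RNA, fewer cells of a type and less RNA per cell cannot be told apart.

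Most members were weakly expressed. Their mean over the 4 libraries ran from 1.02 to 66.5 TPM with a median of 5.51 TPM, against a median of 14.2 TPM over all genes tested. The 5 most expressed were ZNF146 (66.5 TPM), ZNF83 (58.1 TPM), ZNF787 (54.6 TPM), ZNF266 (40.4 TPM) and ZNF428 (36.9 TPM). Among these 5, ZNF266 alone had a KRAB match. A KRAB box was looked for in the translated coding sequences by 2 residue patterns, and 95 members matched and 26 did not. A match can be missed, as in ZNF446, which has been described with a KRAB box and counts here among those without a match. The members with a match had a median of 13 fingers and a median level of 4.59 TPM, and those without had a median of 7.5 fingers and a median level of 12.8 TPM. At the limit, the 3 lowest members were ZNF382 (1.02 TPM), ZNF543 (1.08 TPM) and ZNF555 (1.19 TPM). The 3 genes just below it were ZNF345 (0.951 TPM), ZNF347 (0.929 TPM) and ZNF805 (0.902 TPM).

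The groups were compared gene by gene with limma, on log2(TPM + 1), for the 16937 genes that reached 1 TPM in 2 or more libraries. A gene counted as higher or lower in sh-ANP32B where the adjusted p was below 0.05 and the log2 fold change passed 0.5 in size. Of the 121 members, 120 were tested, and 14 were higher and 4 were lower. Among all genes tested, 17.9% were higher and 10.1% were lower by the same limits, whereas 11.7% of the members were higher and 3.33% were lower. Thus a smaller share of the members than of all genes passed the test in each direction, a difference that was not itself tested. The call of 5 higher members held with any 1 library left out (ZNF846, ZNF461, ZNF780A, ZNF224 and ZNF814), as did that of 1 lower member (ZNF473). The exception to testing was ZNF382, at 0.773 and 0.424 TPM in sh-NC and at 0.508 and 2.36 TPM in sh-ANP32B, whose knockdown libraries were far apart.

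Without the limits on p and fold, the TPM of both knockdown libraries lay above those of both control libraries in 56 of the 120 members (46.7%), and below them in 30 (25%). Over all genes tested, these shares were 42.5% and 32.1%. In a design of 2 against 2 libraries, the smallest two-sided p of an exact permutation test is 0.33, so the calls rest on the spread that limma shares across genes. By the unadjusted p, 16 members were higher and 5 were lower, where 20.2% and 10.8% of all genes were.

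**Figure D1:**
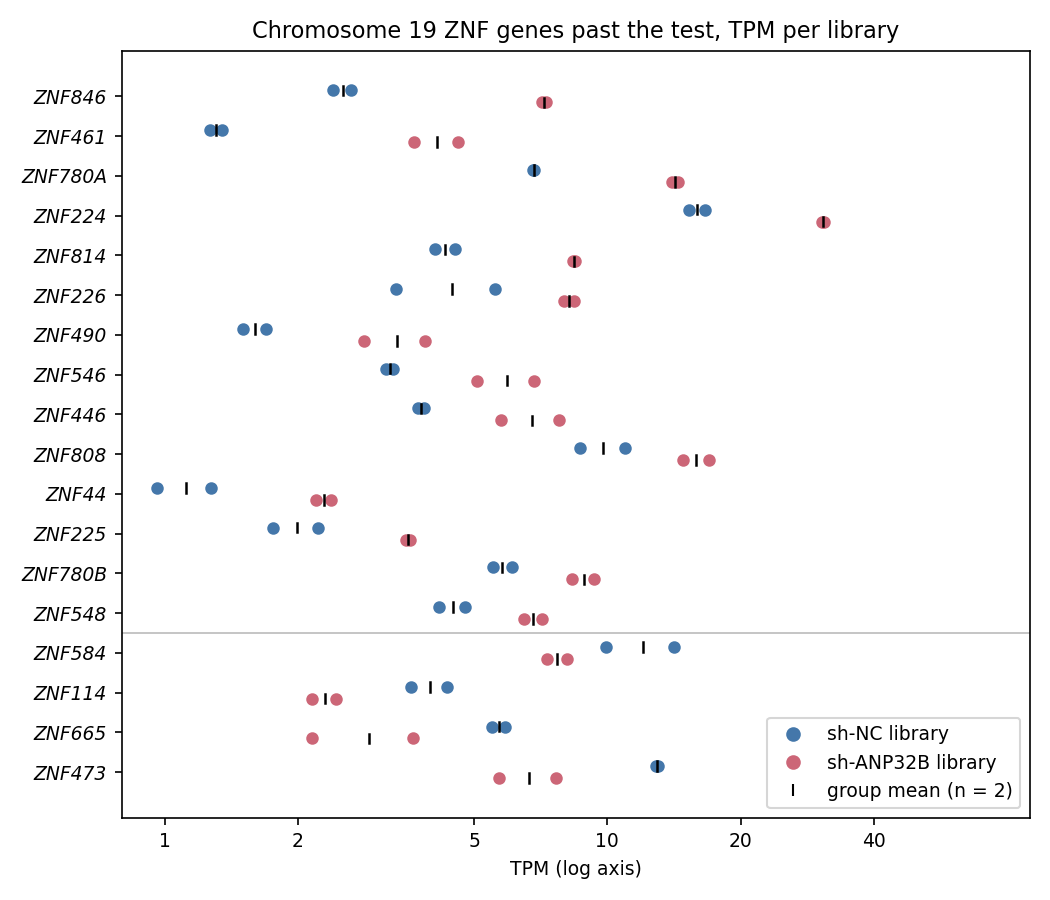
TPM (log axis) of the 18 members that passed the test, with 1 point for each library and a bar at the mean of each group (n = 2). Above the line are the 14 members that were higher in sh-ANP32B, led by ZNF846, and below it the 4 that were lower, and in none of the 18 do the groups overlap.

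ZNF846 (chr19:9751993-9793180 on hg38, minus strand) had the largest log2 fold change on the log2(TPM + 1) scale. It was at 2.41 and 2.64 TPM in sh-NC and at 7.26 and 7.13 TPM in sh-ANP32B. The groups were well apart, with means of 2.52 ± 0.17 and 7.19 ± 0.09 TPM (SD, n = 2), a ratio of 2.85 and a log2 fold change of 1.22 ± 0.15 (SE, adjusted p = 0.00187). ZNF846 shares 712 exonic bases on the same strand with an unnamed gene, ENSG00000267370. Of its 50-base windows, 21.6% recur in another gene of chromosome 19 or another ZNF gene, most often in ENSG00000267370. That gene was at 0.183 and 0.414 TPM in sh-NC and at 3.49 and 1.72 TPM in sh-ANP32B. Reads of the pair may have been split between them.

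ZNF461, known as a gonadotropin-inducible gene, was at 1.34 and 1.27 TPM in sh-NC and at 4.59 and 3.66 TPM in sh-ANP32B. Its log2 fold change was 1.15 ± 0.19 (SE, adjusted p = 0.00585), and its ratio of mean TPM, 3.16, was above that of ZNF846. Its exons overlap no other annotated gene. ZNF846 and ZNF461 were the only members called at a log2 fold change beyond 1, a limit that 6.71% of all genes passed upwards and 1.61% downwards. ZNF814 was at 4.08 and 4.52 TPM in sh-NC and at 8.44 and 8.36 TPM in sh-ANP32B. Its log2 fold change was 0.83 ± 0.13 (SE, adjusted p = 0.00509). ZNF814 shares 2443 exonic bases with ZNF587 on the opposite strand, and ZNF587 was at 15.9 and 16.7 TPM in sh-NC and at 16.1 and 15.8 TPM in sh-ANP32B. Whether the authors counted reads by strand is not given in the sources used here, so reads over these bases cannot be assigned to either gene.

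ZNF224, a KRAB repressor first described at the aldolase A promoter, was the most expressed of the higher members. It was at 16.6 and 15.3 TPM in sh-NC and at 30.5 and 30.8 TPM in sh-ANP32B, a log2 fold change of 0.90 ± 0.08 (SE, adjusted p = 0.000609). Its neighbour ZNF225 was at 1.754 and 2.22 TPM in sh-NC and at 3.59 and 3.51 TPM in sh-ANP32B. ZNF226 was at 5.57 and 3.33 TPM in sh-NC and at 7.97 and 8.39 TPM in sh-ANP32B. All 3 were higher in both knockdown libraries than in both control libraries, and the control libraries of ZNF226 were the least alike. The log2 fold changes of ZNF225 and ZNF226 were 0.61 ± 0.18 and 0.78 ± 0.22 (SE, adjusted p = 0.041 and 0.0349), and both lost their call under quantile normalization and median-of-ratios scaling. ZNF224 shares 3005 exonic bases with the antisense gene ZNF225-AS1, which was not analysed here.

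These genes belong to a cluster between 43.5 and 45.1 Mb with 13 members, split off wherever successive starts were more than 1 Mb apart. Of the 13, 9 had a positive log2 fold change (69.2%, against 56.3% of all genes), and the median was 0.36. By the test, 3 of the 13 were higher (23.1%, against 17.9% of all genes). The 4 negative members, ZNF575, ZNF428, ZNF180 and ZNF296, lie towards its ends, at -0.11, -0.39, -0.38 and -0.43, and none of them passed the test. ZNF428, with a single matched finger, was at 41.5 and 42.4 TPM in sh-NC and at 33.9 and 29.98 TPM in sh-ANP32B.

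A second set of neighbours, singled out after its values were seen, lies between 39.98 and 40.09 Mb and holds ZNF546, ZNF780B and ZNF780A. ZNF780A was at 6.84 and 6.80 TPM in sh-NC and at 14.4 and 14.0 TPM in sh-ANP32B, a log2 fold change of 0.96 ± 0.10 (SE, adjusted p = 0.00129). ZNF780B was at 6.08 and 5.51 TPM in sh-NC and at 9.35 and 8.34 TPM in sh-ANP32B, a log2 fold change of 0.53 ± 0.13 (SE, adjusted p = 0.0226). ZNF546 was at 3.16 and 3.29 TPM in sh-NC and at 6.82 and 5.08 TPM in sh-ANP32B, a log2 fold change of 0.71 ± 0.18 (SE, adjusted p = 0.0251). All 3 members of this cluster thus passed the test upwards, but ZNF546 and ZNF780B kept their call with only 1 of the 4 libraries left out. Both lost it under quantile normalization, and ZNF780B also under median-of-ratios scaling. The proteins of ZNF780A and ZNF780B are 67.9% identical, and 11.6% of the 50-base windows of ZNF780A recur in another gene, most often in the unnamed ENSG00000269749.

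The repeated unit that makes these genes alike is shown by the first finger of each that has a linker before and after it, read from the GENCODE canonical transcripts on hg38. Capitals mark the 15 bases that code for the linker, and the 84 bases of each run 5′ to 3′ along the coding strand, at chr19:40014492-40014575, chr19:40035290-40035373 and chr19:40075797-40075880.
ZNF546: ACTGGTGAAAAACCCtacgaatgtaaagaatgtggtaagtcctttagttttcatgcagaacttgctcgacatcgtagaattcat
ZNF780B: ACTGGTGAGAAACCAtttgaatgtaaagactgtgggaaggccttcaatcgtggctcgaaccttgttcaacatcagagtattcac
ZNF780A: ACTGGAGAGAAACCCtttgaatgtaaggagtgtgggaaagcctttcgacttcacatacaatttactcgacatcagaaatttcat
The linker bases differ between the 3 genes while the finger that follows has the same length.

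The promoters of these neighbours are shown because the 3 genes moved together. They are the 250 bases before the RefSeq start on GRCh38.p14, at chr19:40090944-40091193 (minus strand), chr19:40056232-40056481 (minus strand) and chr19:39996810-39997059 (plus strand), and capitals mark TTCCCAG or its reverse complement CTGGGAA.
ZNF780A: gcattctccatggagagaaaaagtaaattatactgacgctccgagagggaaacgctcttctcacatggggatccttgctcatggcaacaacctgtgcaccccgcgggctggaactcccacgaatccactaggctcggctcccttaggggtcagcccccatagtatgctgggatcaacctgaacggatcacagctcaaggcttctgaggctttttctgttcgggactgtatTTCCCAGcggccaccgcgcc
ZNF780B: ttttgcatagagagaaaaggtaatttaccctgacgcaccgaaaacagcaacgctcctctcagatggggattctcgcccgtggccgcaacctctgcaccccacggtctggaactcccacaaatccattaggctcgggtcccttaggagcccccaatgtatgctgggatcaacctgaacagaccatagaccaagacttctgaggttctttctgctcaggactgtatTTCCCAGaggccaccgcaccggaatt
ZNF546: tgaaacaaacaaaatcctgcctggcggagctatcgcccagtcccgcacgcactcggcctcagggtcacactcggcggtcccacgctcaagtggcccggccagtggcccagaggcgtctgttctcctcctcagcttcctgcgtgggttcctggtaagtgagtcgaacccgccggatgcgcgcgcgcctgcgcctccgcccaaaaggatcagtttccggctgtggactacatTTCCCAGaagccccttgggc
ZNF780A and ZNF780B share 203 identical bases of the 250, or 79.0% of the aligned columns, whereas ZNF780A and ZNF546 share 152, or 52.8%. Each of the 3 holds 1 copy of TTCCCAG.

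The promoters of ZNF224, ZNF225 and ZNF461 were marked in the same way. They lie at chr19:44094111-44094360 (plus strand), chr19:44113149-44113398 (plus strand) and chr19:36666838-36667087 (minus strand).
ZNF224: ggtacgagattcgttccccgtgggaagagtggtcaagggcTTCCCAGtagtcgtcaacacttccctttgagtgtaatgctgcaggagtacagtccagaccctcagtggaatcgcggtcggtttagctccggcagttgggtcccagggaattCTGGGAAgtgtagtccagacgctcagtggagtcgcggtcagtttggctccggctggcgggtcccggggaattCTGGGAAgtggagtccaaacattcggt
ZNF225: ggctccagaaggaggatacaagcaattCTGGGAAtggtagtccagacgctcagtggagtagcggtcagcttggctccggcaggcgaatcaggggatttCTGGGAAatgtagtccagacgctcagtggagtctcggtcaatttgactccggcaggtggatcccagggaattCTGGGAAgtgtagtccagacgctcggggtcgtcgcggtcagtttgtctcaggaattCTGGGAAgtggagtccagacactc
ZNF461: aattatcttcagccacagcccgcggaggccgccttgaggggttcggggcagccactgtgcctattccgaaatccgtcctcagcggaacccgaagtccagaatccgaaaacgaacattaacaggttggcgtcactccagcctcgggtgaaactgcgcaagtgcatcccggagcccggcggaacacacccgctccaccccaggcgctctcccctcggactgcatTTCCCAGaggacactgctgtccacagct
ZNF224 holds 3 copies of the string and ZNF225 holds 4, ZNF461 holds 1, and 66.1% of the aligned columns of ZNF224 and ZNF225 are identical.

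Of the 121 members, 109 had a promoter in RefSeq. TTCCCAG, chosen after these promoters had been read, was found on either strand in 34 of them (31.2%), against 9.30% of 27305 promoters of all genes. It stood in 9 of the 14 higher members and in 25 of the 93 members that did not pass the test. The 9 include all the promoters shown above, which were read before the string was chosen. This contrast was thus partly set by the choice and was not tested. Only 1 of the 4 lower members had a promoter, and it lacked the string. Among the other strings searched, CCGGAAG, the core of sites for ETS factors, stood in 32 (29.4% against 8.82%), and GGGCGG, the core of sites for SP factors, in 69 (63.3% against 42.3%). CACGTG, bound by MYC with MAX, stood in 7 (6.42% against 6.49%), TGACGTCA in 3 (2.75% against 1.77%) and the palindromic NRF motif in 1 (0.917% against 1.13%). All were searched on both strands, and none of these strings contains another. CCGGAAG stood in 4 of the 14 higher members and in 27 of the 93 not past the test. The members were chosen as protein-coding and expressed genes and the 27305 promoters were not, so the sets differ in more than gene family. A match is a string of letters in this window and does not show that a factor binds there.

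The remaining higher members were ZNF490, ZNF446, ZNF808, ZNF44 and ZNF548, with log2 fold changes between 0.51 and 0.73. ZNF808 was at 8.66 and 10.9 TPM in sh-NC and at 14.8 and 17.0 TPM in sh-ANP32B. ZNF446, whose protein also carries a SCAN domain, was at 3.73 and 3.86 TPM in sh-NC and at 5.75 and 7.77 TPM in sh-ANP32B. It shares 1420 exonic bases on the same strand with ZNF324, which was at 6.60 and 5.79 TPM in sh-NC and at 7.70 and 9.53 TPM in sh-ANP32B. The reads of ZNF490 are the hardest of these to assign, since 56.6% of its 50-base windows recur in another gene, most often in the unnamed ENSG00000269693. That gene shares 3472 exonic bases with ZNF490 on the same strand. It was at 1.03 and 2.16 TPM in sh-NC and at 1.07 and 1.77 TPM in sh-ANP32B. ZNF44 passed at an adjusted p of 0.0499 (limma), and lost its call when any 1 library was left out, as did ZNF225 and ZNF548.

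Among the lower members, ZNF473 (chr19:50025714-50053414 on hg38, plus strand) had the lowest log2 fold change on the log2(TPM + 1) scale, although the ratio of mean TPM was 0.515 for ZNF473 and 0.510 for ZNF665. Its protein is a subunit of the machinery that cuts the ends of histone mRNAs. ZNF473 was at 13.0 and 12.9 TPM in sh-NC and at 5.68 and 7.64 TPM in sh-ANP32B. The means were 12.9 ± 0.10 and 6.66 ± 1.38 TPM (SD, n = 2), with a log2 fold change of -0.87 ± 0.15 (SE, adjusted p = 0.007). No 50-base window of ZNF473 recurs in another gene of chromosome 19 or another ZNF gene, and its call held with any 1 library left out. Its exons share bases with 2 annotated genes on the opposite strand, at most 245 with either.

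The other 3 lower members rested on less. ZNF665 was at 5.88 and 5.49 TPM in sh-NC and at 3.64 and 2.15 TPM in sh-ANP32B (log2 fold change -0.80 ± 0.23, SE). ZNF114 was at 4.34 and 3.61 TPM in sh-NC and at 2.16 and 2.44 TPM in sh-ANP32B (log2 fold change -0.59 ± 0.18, SE). ZNF584 was at 9.94 and 14.2 TPM in sh-NC and at 7.30 and 8.09 TPM in sh-ANP32B (log2 fold change -0.57 ± 0.18, SE). The control libraries of ZNF584 were further apart than its groups at their nearest, and its adjusted p was 0.0488 (limma). ZNF665 kept its call only without sh-ANP32B replicate 1 and ZNF584 only without sh-NC replicate 1, and ZNF114 lost it with any library left out.

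**Figure D2:**
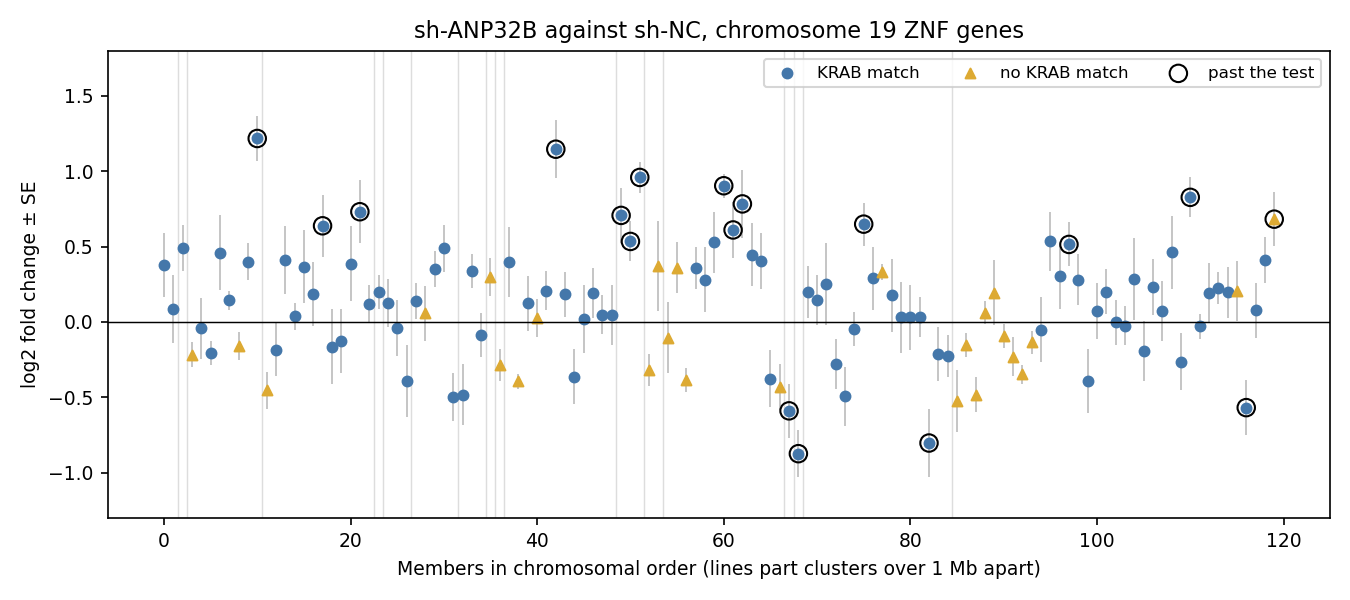
Log2 fold change of sh-ANP32B against sh-NC (vertical axis, bars are SE) for the 120 tested members in chromosomal order, with circles for a KRAB match, triangles for none, rings for members past the test and vertical lines between clusters. The neighbours ZNF546, ZNF780B and ZNF780A and the neighbours ZNF224, ZNF225 and ZNF226 stand high together, and the triangles mostly lie below 0.

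The members with a KRAB match and those without differed in level and in direction. With a match, 94 were tested, of which 13 were higher (13.8%) and 4 were lower (4.26%), against 17.9% and 10.1% of all genes. A positive log2 fold change was seen in 66 of the 94 (70.2%, against 56.3% of all genes), and the group median was 0.18. Without a match, 26 were tested, of which 1 was higher (3.85%) and 0 were lower by limma (1 lower by the unadjusted p, ZNF628). A positive log2 fold change was seen in 10 of the 26 (38.5%), and the group median was -0.14. The TPM ranges lay apart upwards in 50 and downwards in 16 of the 94, and upwards in 6 and downwards in 14 of the 26. Over all genes tested, 42.5% lay apart upwards and 32.1% downwards. The median of all genes tested was 0.08. ZNF440, ZNF543 and ZNF763, which reached the level limit only through sh-ANP32B, count among the positive members with a match. With 1 TPM or more required in every library, the 88 members with a match had a median of 0.16. The 26 without then had a median of -0.14, and all genes 0.04. The medians of the KRAB members and of all genes turn negative under quantile normalization (-0.04 each), whereas the median with a match stayed above that without in the 9 alternatives that can move a fold change, by 0.20 to 0.36. The difference between the 2 kinds of member was not tested.

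Summed over members, the 95 with a match gave 540 and 549 TPM in sh-NC and 614 and 623 TPM in sh-ANP32B. The 26 without a match gave 535 and 553 TPM in sh-NC and 483 and 481 TPM in sh-ANP32B. The sums moved in opposite directions and left the sum over all 121 members almost where it was, at 1075 and 1102 TPM in sh-NC and at 1098 and 1104 TPM in sh-ANP32B.

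**Figure D3:**
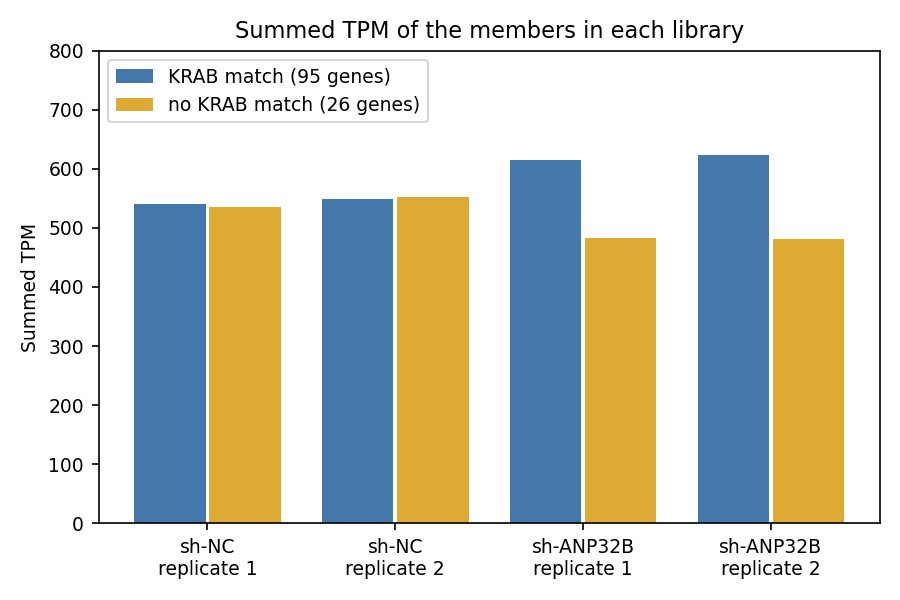
Summed TPM (vertical axis) of the 95 members with a KRAB match and the 26 without, as bars for each of the 4 libraries. The KRAB sum is at 540 and 549 in sh-NC and at 614 and 623 in sh-ANP32B, and the other sum at 535 and 553 against 483 and 481.

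The sums without a match are spread over many genes. The most expressed of them are given here and account for only a part of these sums. ZNF146, made up of fingers only, was at 75.5 and 75.8 TPM in sh-NC and at 56.4 and 58.3 TPM in sh-ANP32B (log2 fold change -0.39 ± 0.05, SE, adjusted p = 0.00206). ZNF787 was at 63.2 and 59.4 TPM in sh-NC and at 49.4 and 46.5 TPM in sh-ANP32B (log2 fold change -0.35 ± 0.06, SE, adjusted p = 0.00722). ZNF83 went the other way, at 52.7 and 49.96 TPM in sh-NC and at 64.7 and 65.0 TPM in sh-ANP32B (log2 fold change 0.33 ± 0.05, SE, adjusted p = 0.00513). These genes are clear of replicate spread but inside the fold limit, as are 10 of the 28 members with an adjusted p below 0.05. Without the fold limit, 18 members were higher and 10 were lower, where 26% and 19.7% of all genes were.

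At a mean of 5 TPM and over, where both kinds were present in number, the 42 members with a match had a median log2 fold change of 0.14 and the 23 without had a median of -0.16. Across the 120 members, which share the same 4 libraries, the log2 fold change had a Pearson correlation of -0.21 with the log2 mean TPM, and of -0.02 across the 94 with a match. With the number of fingers the correlation was 0.13, and 0.03 across those with a match. Among members with over 12 fingers 11 of 57 (19.3%) were higher, near the 17.9% of all genes, and 2 of 41 with 8 to 12 fingers and 1 of 22 with fewer were. The medians of the 3 groups were 0.12, 0.14 and 0.02.

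**Figure D4:**
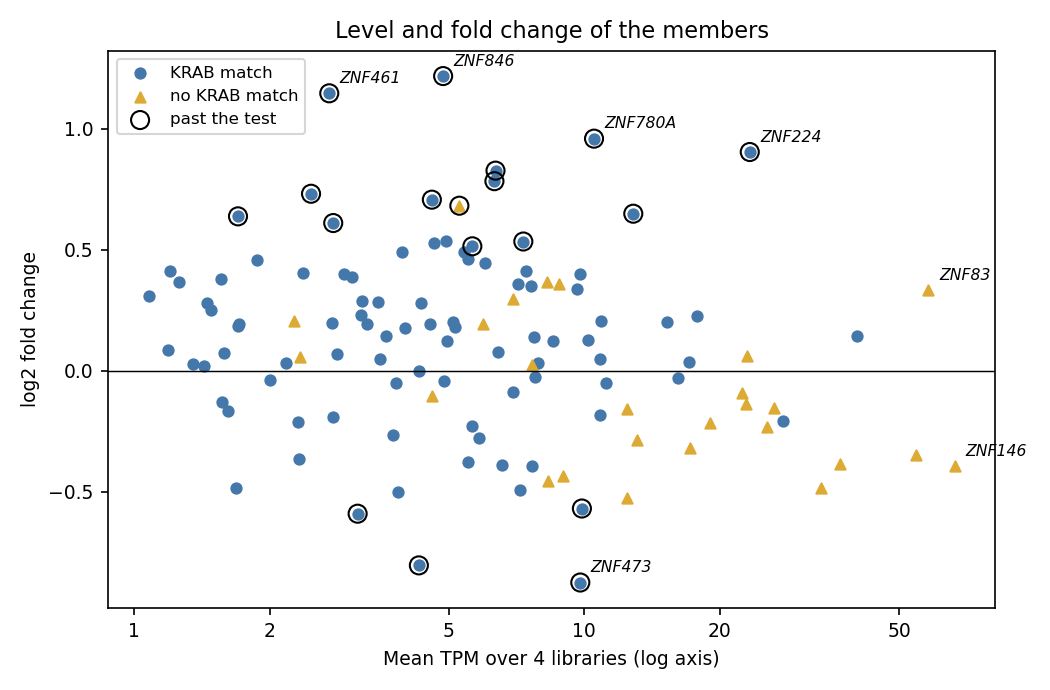
Mean TPM over the 4 libraries (horizontal, log axis) against log2 fold change for the 120 tested members, with circles for a KRAB match, triangles for none and rings for members past the test. Triangles lie mostly at high levels, and the most expressed of them, ZNF146, lies below 0 while ZNF83 lies above it.

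The same split was made among ZNF genes of other chromosomes, a comparison added after the members' values were seen. Of 183 tested, 74 had a KRAB match, with 16 higher (21.6%), 4 lower (5.41%) and a median of 0.18. The other 109 had none, with 15 higher (13.8%), 11 lower (10.1%) and a median of 0.01. All 183 together had 31 higher, 15 lower and a median of 0.08. Among the other protein-coding genes of chromosome 19, 156 of 716 were higher, 85 were lower, and the median was 0.06. The median of the KRAB members of chromosome 19 was therefore near that of the KRAB genes elsewhere. The share called higher was 13.8% in the former and 21.6% in the latter, on either side of the 17.9% of all genes. Both groups of ZNF genes had a smaller share of lower genes than the other genes of the chromosome. These differences were not tested.

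**Figure D5:**
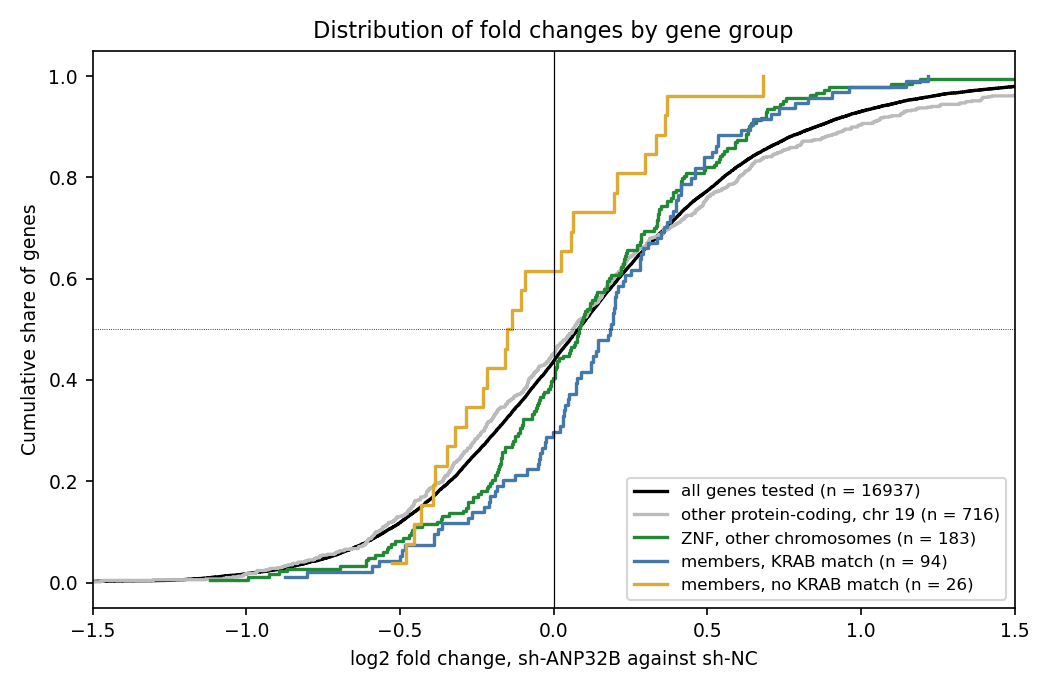
Cumulative share of genes (vertical axis) by log2 fold change (horizontal axis) for all genes tested, other protein-coding genes of chromosome 19, ZNF genes of other chromosomes, and the members with and without a KRAB match. At the dotted line the curve of the 94 KRAB members crosses at 0.18 and that of the 26 others at -0.14, on either side of all genes at 0.08.

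By position, the 6 further clusters with at least 5 tested members had medians between 0.03 and 0.15. The largest, between 55.5 and 58.5 Mb near the end of the long arm, had 35 members, of which 3 were higher and 1 was lower, with a median of 0.07. Between 51.6 and 53.5 Mb, 1 of 16 was higher and 1 was lower, at a median of 0.03. Between 36.2 and 37.4 Mb, 10 of 12 tested members had a positive log2 fold change, as did 56.3% of all genes tested, and only ZNF461 passed the test. The clusters at 8.51 to 9.79 Mb and at 11.5 to 12.6 Mb had 1 of 8 and 2 of 12 members higher (12.5% and 16.7%, against 17.9% of all genes), and that at 21.0 to 21.8 Mb had 4 of 5 positive with none past the test.

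Of the 11 tested members with a known role, 2 were higher (ZNF224 and ZNF446) and 1 was lower (ZNF473). These shares are near the 17.9% and 10.1% of all genes. ZNF274, which binds the ends of other ZNF genes and recruits SETDB1 there, was at 17.2 and 15.5 TPM in sh-NC and at 20.5 and 18.0 TPM in sh-ANP32B (log2 fold change 0.22 ± 0.11, SE, adjusted p = 0.136). ZNF93, a repressor of LINE elements, was at 9.08 and 8.33 TPM in sh-NC and at 8.38 and 4.83 TPM in sh-ANP32B, so that 1 knockdown library reached the control level. ZNF417 and ZNF587, near-copies that bind endogenous retroviruses, had log2 fold changes of 0.19 ± 0.20 and -0.03 ± 0.09 (SE). Their proteins are 98.1% identical and 37.4% of the 50-base windows of ZNF417 recur in another gene, so their levels may be mixed. ZNF175, ZNF444 and ZNF296 had log2 fold changes of 0.20, -0.14 and -0.43, with adjusted p-values of 0.393, 0.194 and 0.0647 (limma).

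The partners through which KRAB proteins act were measured as well. Of 21 cofactor genes, all tested, 8 were lower and 0 were higher by limma, against 10.1% and 17.9% of all genes, and at an unadjusted p below 0.05 with no fold limit 2 were above 0, ATF7IP and CHD3. TRIM28 itself was at 432 and 436 TPM in sh-NC and at 274 and 285 TPM in sh-ANP32B (log2 fold change -0.63 ± 0.04, SE, adjusted p = 0.000216). SETDB1, the methyltransferase it recruits, was at 57.2 and 61.0 TPM in sh-NC and at 64.6 and 64.5 TPM in sh-ANP32B (log2 fold change 0.13 ± 0.06, SE, adjusted p = 0.117). TRIM28 thus fell with both knockdown libraries below both controls, and SETDB1 did not pass the test.

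The other lower cofactors fall into 3 functions. The HP1 genes CBX1 and CBX5 had log2 fold changes of -0.72 and -0.79. HDAC2, RBBP4 and RBBP7, subunits of NuRD, had -0.51, -0.52 and -0.81. The DNA methylation genes DNMT1 and UHRF1 had -0.71 and -1.04, and UHRF1 was at 100 and 99.5 TPM in sh-NC and at 46.2 and 49.5 TPM in sh-ANP32B. DNMT1 and UHRF1 are also known for their part in copying DNA methylation at replication. TASOR and MPHOSPH8 of the HUSH complex had -0.49 and 0.12, inside the fold limit.

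Reads shared between near-copies limit single values. The median member had 0.768% of its 50-base windows in another gene, 34 had none, and 14 had over 20%. Only genes of chromosome 19 and genes with a ZNF symbol were searched for these windows. Exons of 78 members overlap those of another annotated gene, 44 of them on the same strand. Among the 43 tested members without such an overlap, 3 were higher (6.98%, ZNF461, ZNF546 and ZNF226) and 0 were lower by limma (1 by the unadjusted p, ZNF628). Among the 77 with an overlap, 11 were higher (14.3%) and 4 were lower (5.19%), where 17.9% and 10.1% of all genes were. Most calls thus lay in members with an overlap, while the medians were close, at 0.13 without and 0.12 with. These differences were not tested.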

How the data were processed

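Total RNA of MV4-11 cells was sequenced in 4 libraries, 2 of sh-NC and 2 of sh-ANP32B. Alignment by the authors was to hg38, using HISAT2 (version 2.0.5, per the submitters' processing notes). They deposited TPM for 18885 genes in each library, a unit read from the values, and the lowest mean of a listed gene was 0.500 TPM. The counter, annotation and strand setting are not given in the sources used here. The knockdown columns carry a code that the labels do not use. They were taken as sh-ANP32B because the other columns bear the control name, and were matched by replicate number. Genes were mapped to GENCODE version 44 by identifier, with 17290 of 18885 matched.

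TPM were tested with limma 3.58.1 in R 4.3.3 (lmFit, eBayes with a trend) on log2(TPM + 1), which understates changes of low genes, and p-values were adjusted by Benjamini-Hochberg over 16937 genes. The script was tested on simulated data. Tables and plots used Python 3.11.15, numpy 2.4.6, pandas 2.3.3, matplotlib 3.10.9 and Biopython 1.88. KRAB boxes (2 patterns in the first 350 residues) and fingers were matched in translated GENCODE canonical coding sequences, planned on RefSeq proteins. Named genes were the 12 lowest and 12 highest members past the test that moved alike in each same-numbered pair, the 5 most expressed, the 3 on either side of the level limit, members with a known role, and a cofactor list. ZNF780B, ZNF548, ZNF628 and the cluster neighbours were named after their values were seen. The members and lists were chosen with earlier results of these data known. Alternatives were the replicate block, other filters, pseudocounts, scalings and call limits, and each library left out.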

Additional observations from a re-analysis of the deposited data

How the results depend on the processing

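ANP32B stayed lower past the test in all 11 other fits. Of the chromosome 19 ZNF genes, 4 were lower and 14 higher (3.33% and 11.7%, against 10.1% and 17.9% of all genes). The number lower was 13 under quantile normalization, 8 under median-of-ratios scaling, 2 without a trend in the variance, 10 without the fold limit, 0 at a fold limit of 1 (limma, 0 also by the unadjusted p) and 0 among members without exon overlap (1 by the unadjusted p). The number higher was 6, 9, 13, 18, 2 and 3 in the same order. Thus 77.8% of the called members were higher (63.9% of all called genes), 31.6% (50.2%) under quantile normalization and 52.9% (51.1%) under median-of-ratios scaling, and the cause was not tested. Under quantile normalization, 10.8% of the members were lower and 5% higher, against 13.1% and 13.2% of all genes. Under median-of-ratios scaling, the shares were 6.67% and 7.5%, against 13.7% and 14.3%. Without a trend in the variance, they were 1.67% and 10.8%, against 9.84% and 17.7%. Quantile normalization moved the median of all genes by -0.11. The median of the members, 0.13, turned to -0.0857 under it and was 0.0403 under median-of-ratios scaling. Under both scalings, 6 of the 14 higher and all 4 lower members kept their call.

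With 1 library left out, where the lone library was assumed to vary like the other group, 1 to 6 members were lower and 7 to 9 higher, and the median ran from 0.09 to 0.14. The fewest lower remained without sh-NC replicate 2 (1) and sh-ANP32B replicate 2 (2), and 7 were higher without sh-NC replicate 1 or sh-ANP32B replicate 2. Calls held in all 4 such fits for 5 higher members and for ZNF473.

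The replicate numbers did not pair the libraries (correlation of deviations -0.0232 over 2 pairs). With the replicate block, which cannot move fold changes, 4 members were lower and 11 higher (3.33% and 9.17%, against 9.87% and 16.8% of all genes). ZNF114, ZNF490, ZNF44 and ZNF225 lost their call and ZNF628 became lower. TPM keep no depth, so no counting error can be given for low genes.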
